A study of Mus musculus with 107 samples.

Results

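The effect of lenvatinib (LEN) on MC38 colon tumors was read from 6 of the 107 tumors in the deposited expression table, the 3 MC38 tumors labelled LEN and the 3 labelled NT (no treatment) that were collected on day 8. They were taken by their labels, and every gene in the table was considered. MC38 is a mouse colorectal cancer cell line, here a single line bought from 1 supplier. In the study's methods the cells were implanted under the skin of the right flank of 7-week-old female C57BL/6NCrl mice. LEN was given by oral gavage at 10 mg/kg once daily, starting when the tumors had grown to the size set for treatment, and the NT mice received no drug. No transgene, gene deletion or second agent was present in either group. There were also 2 treatment-naive MC38 tumors taken at baseline, which enter no test. The series holds 12 such syngeneic models, meaning mouse cancer lines grown in immune-competent mice, each with 3 NT and 3 LEN tumors on day 8. The whole tumor was sequenced, so each value sums cancer cells and host cells, and fewer cells of a type cannot be told apart from less RNA per cell. In the sentences that follow, values are given in the order NT tumor 2, 3 and 4 and LEN tumor 2, 3 and 5. They are TPM (transcripts counted per fixed total), a level scaled for gene length and for the total of each tumor.

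LEN is an oral inhibitor of several receptor tyrosine kinases, among them the VEGF receptors, the FGF receptors, PDGFRα, KIT and RET. VEGF signaling keeps tumor endothelial cells alive and sprouting, and its blockade thins tumor capillaries in many models. Poorly perfused tissue stabilizes the HIF transcription factors, which switch on genes for glucose uptake, glycolysis, pH control and further VEGF production. MC38 tumors are known for a rich infiltrate of T cells and myeloid cells.

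Markers of a colon epithelium were low in the tumors labelled MC38. The summed level of 13 such markers was 6.67 to 8.30 TPM in NT tumors, 4.85 to 23.9 TPM in LEN tumors, with the highest in LEN tumor 5, and 18.4 to 26.8 TPM in treatment-naive tumors. Of these 13 epithelial and colon markers 9 were below a mean of 1 TPM, Epcam (an epithelial adhesion protein) was 0.26, 0.43 and 0.23 TPM in NT tumors and 0.12, 0.13 and 1.86 TPM in LEN tumors, and Cdx2 (the intestinal master regulator) was 0.07, 0 and 0 TPM in NT tumors and 0, 0 and 0 TPM in LEN tumors. The label therefore rests on the line's origin and not on these genes. The summed level of 12 skin keratinocyte markers ranged from 5.40 to 30.95 TPM in NT tumors and from 4.87 to 52.1 TPM in LEN tumors, and the summed level of 12 skeletal muscle markers from 47.6 to 90.01 and from 50.6 to 77.6 TPM. The summed level of 9 adipocyte markers ranged from 27.6 to 38.7 TPM in NT tumors and from 27.9 to 37.3 TPM in LEN tumors. Their part in the results was not tested. Protein-coding genes held 56.4 to 62.4% of the TPM in the 6 tumors, and the small nuclear RNA gene Rn7sk was the largest entry at 7.36 to 8.06%. TPM carries no sequencing depth, so the counting precision of each value is unknown. The labels give no batch. They do not say that the tumors came from separate animals, so the p-values measure only the spread between these samples.

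LEN was compared with NT on the log2(TPM + 1) scale by limma with Benjamini-Hochberg adjustment (adjusted p), over the 15920 genes with a mean of at least 1 TPM. The added 1 makes a fold change smaller than it is for genes with low values. Few single genes passed. At an adjusted p below 0.05, 4 genes were lower with LEN (0.0251% of those tested) and 1 was higher (0.00628%), against 677 lower and 1081 higher at an unadjusted p below 0.05. That balance depended on the scaling. With each tumor scaled to its upper quartile, 1158 were lower and 764 higher at an unadjusted p below 0.05. At TPM as deposited, the values did not overlap between the groups for 1021 genes that were lower (6.41%) and 1774 that were higher (11.1%). The median log2 difference over all genes tested was 0.03. In the second fit the TPM of the protein-coding genes was rescaled to a common total and the other genes were set aside, and 48 of 12997 genes were lower (0.369%) and 42 were higher (0.323%), with 895 and 1110 at an unadjusted p below 0.05. Higher genes made up 20% of the calls over all genes and 46.7% of the calls in the protein-coding fit, and 2 genes were called in both. When all 72 day 8 tumors were fitted together, so that every model shared 1 estimate of the spread, 39 genes were lower in MC38 (0.225%) and 26 were higher (0.15%). Of the calls in the protein-coding fit, 21 were also called in the fit of 72 tumors.

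The protein-coding fit made fewer calls without any one of 5 tumors, NT tumor 2 being the exception. It called 13 lower and 9 higher genes without LEN tumor 2, 15 and 13 without LEN tumor 3, and 2 and 0 without LEN tumor 5. It called 90 and 42 without NT tumor 2, 7 and 0 without NT tumor 3, and 3 and 0 without NT tumor 4. Of its 90 calls, 2 passed in all 6 of these fits, 49 passed in 1 and 16 in none, and of the genes described below Cldn5, Cxcl10, Gpr141, Kdm3a, Ldha, Pgam1 and Serpine2 were among those 16. The words rose and fell below refer to an adjusted p under 0.05 in the protein-coding fit unless another fit is named, and the log2 differences beside them come from that fit. Where a gene did not pass, its values are given without such a verb.

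**Figure D1:**
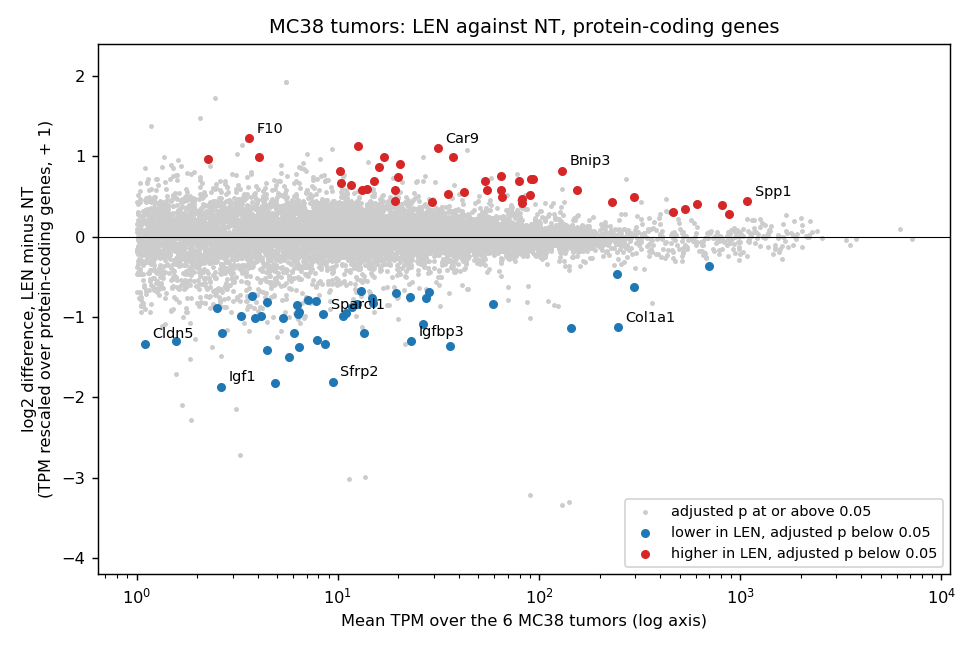
Each point is 1 of 12295 protein-coding genes with a mean of at least 1 TPM as deposited, with its mean TPM over the 6 tumors on a log axis against the log2 difference of LEN minus NT after rescaling over protein-coding genes. Blue marks 46 of the 48 genes that fell and red the 42 that rose at an adjusted p below 0.05, with the others in grey. Igf1, Mest and Sfrp2 lie lowest among the blue points at -1.86 to -1.80, and the red points reach 1.23 at most.

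Igfbp3 was among the genes called over all genes, and its transcript has no near copy. It lies at chr11:7206086-7213923 of GRCm38 and encodes a secreted binding protein for insulin-like growth factors. Its level was 34.3, 37 and 27.8 TPM without treatment and 12.5, 13.1 and 13.8 TPM with LEN, with 28.2 and 23.6 TPM in the treatment-naive tumors. The groups did not overlap, and the log2 difference was -1.26 ± 0.11 (SE, n = 3 per group, adjusted p = 0.037) over all genes and -1.30 ± 0.09 (adjusted p = 0.0017) in the protein-coding fit. In the protein-coding fit Igfbp3 stayed below 0.05 in every alternative tried, with adjusted p from 1.8e-05 to 0.036. Over all genes its adjusted p was 0.022 without NT tumor 4 and was above 0.05 without any one of the other 5 tumors (up to 0.16), with no minimum TPM (0.091) and with no variance trend (0.12). Igf1, the growth factor itself, was 4.23, 5.97 and 3.29 TPM in NT tumors and 0.69, 0.80 and 0.86 TPM in LEN tumors and fell by 1.86 on the log2 scale (adjusted p = 0.015), while over all genes its adjusted p was 0.15. The 3 LEN tumors were the lowest of the 8 for both genes.

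Of the calls over all genes, 3 were short non-coding RNAs. Gm23731, a small nuclear RNA gene, was 85.8, 60.2 and 87.9 TPM in NT tumors and 0, 0 and 0 TPM in LEN tumors. Gm27960, a gene of the miscellaneous RNA class, was 8.45, 4.46 and 4.71 TPM in NT tumors and 0, 0 and 0 TPM in LEN tumors. Gm22499, a small nucleolar RNA gene, was 0, 0 and 0 TPM in NT tumors and 28.7, 9.72 and 17.8 TPM in LEN tumors. Each was thus listed at 0 in all 3 tumors of a group. The call of Gm23731 held whichever tumor was left out, while Gm22499 passed in 2 and Gm27960 in 1 of those 6 fits (adjusted p up to 0.15). Gm23731 was however listed at 0 in 66 of the 107 tumors of the series, and it was 0 in the one treatment-naive MC38 tumor and 88.02 TPM in the other. Gm23731 and Gm22499 each had a highest value above 5 times the lowest plus 1 within 25 of the 36 groups of the series, a limit set after the values were seen, and Gm23731 shares at least 90% identity over at least 90% of its length with 266 other genes. Their sequences, from the GENCODE M21 transcripts on GRCm38, are printed to show how short these features are. Gm23731 lies at chr2:102897960-102898066, Gm27960 at chr6:17694902-17695085 and Gm22499 at chr14:18814169-18814303, all on the plus strand.
Gm23731: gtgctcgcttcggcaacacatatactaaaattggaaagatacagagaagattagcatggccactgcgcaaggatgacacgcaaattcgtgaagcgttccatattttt
Gm27960: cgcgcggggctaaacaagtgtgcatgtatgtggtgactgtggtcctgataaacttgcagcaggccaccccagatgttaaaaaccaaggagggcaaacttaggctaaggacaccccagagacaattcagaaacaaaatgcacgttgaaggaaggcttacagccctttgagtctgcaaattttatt
Gm22499: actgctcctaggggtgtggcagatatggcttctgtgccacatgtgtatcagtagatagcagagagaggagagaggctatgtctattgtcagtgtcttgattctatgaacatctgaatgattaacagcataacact

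Genes for endothelial identity and junctions were lower with LEN as a group, by modest amounts, and further endothelial lists were mixed. Of 24 genes for endothelial identity and junctions, 20 could be tested over all genes. Their median log2 difference was -0.54, against 0.03 over all genes, 18 were below 0, and the values of 13 were lower without overlap while 1, Cd34, was higher without overlap (background 6.41% and 11.1%). None passed over all genes by limma (0 genes, against 13 lower and 1 higher at an unadjusted p below 0.05). In the protein-coding fit 4 of 22 fell (background 0.369%), namely Cldn5, Esam, Plvap and Cd93. That count was 4 without NT tumor 2, with Cldn5 no longer among them, and 0 when any one of the other 5 tumors was left out. The 8 capillary and lipid uptake genes tested had a median of 0.02, with 4 below and 4 above 0, and 3 lower and 2 higher without overlap. Of these Fabp4, a fatty acid carrier also made by adipocytes and macrophages, was 13.2, 18.6 and 14.2 TPM in NT tumors and 6.23, 9.25 and 9.13 TPM in LEN tumors and fell (log2 difference -0.88, adjusted p = 0.048, and 0.28 over all genes), while Cav1, the coat protein of caveolae, was 79.2, 69.7 and 65 TPM without treatment and 86.1, 95.3 and 95.6 TPM with LEN (adjusted p = 0.091). The 12 tip cell and Notch genes tested had a median of -0.11, with 7 below and 5 above 0, and none passed in the protein-coding fit.

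Cldn5, the main tight junction claudin of endothelium, was 1.85, 2.26 and 1.39 TPM in NT tumors and 0.49, 0.20 and 0.42 TPM in LEN tumors and fell by 1.33 on the log2 scale (± 0.22, adjusted p = 0.036, and 0.066 to 0.14 when any tumor was left out). Esam, an endothelial adhesion molecule, was 5.38, 6.64 and 5.37 TPM in NT tumors and 2.7, 3.18 and 3.34 TPM in LEN tumors (log2 difference -0.81, adjusted p = 0.036). Plvap, which forms the diaphragms of fenestrated capillaries, was 16.2, 23.8 and 16.5 TPM in NT tumors and 10.9, 11.5 and 9.95 TPM in LEN tumors (log2 difference -0.77, adjusted p = 0.036). Cd93, a receptor of angiogenic endothelium, was 14.7, 18.6 and 15 TPM in NT tumors and 10.3, 9.26 and 10.2 TPM in LEN tumors (log2 difference -0.68, adjusted p = 0.034). In all 4 genes the highest LEN tumor stayed below the lowest NT tumor. Cd34, which marks endothelium but also blood and stromal precursors, was 113, 108 and 106 TPM without treatment and 116, 139 and 136 TPM with LEN (log2 difference 0.24, adjusted p = 0.17).

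The 6 genes of the study's MVD gene score, a measure of microvessel density (MVD), were Cdh5, Eng, Kdr, Pcdh12, Sparcl1 and Tek. The mean of their log2(TPM + 1) values was 2.76, 3.01 and 2.69 in NT tumors and 2.34, 2.21 and 2.34 in LEN tumors, and 2.66 and 2.72 in the treatment-naive tumors. The LEN tumors were thus the 3 lowest of the 8. The study chose these genes for their relation to vessels in its models, treatment-naive MC38 among them, so their direction is not independent evidence. Sparcl1, a matrix protein of vessel walls, had the largest difference of the 4 that could be tested over all genes, at 10.5, 14 and 9.63 TPM in NT tumors and 5.63, 4.76 and 6.3 TPM in LEN tumors, and fell by 0.97 on the log2 scale (± 0.15, adjusted p = 0.034). It was also called in the fit of 72 tumors (adjusted p = 0.019).

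The other 5 did not pass in the protein-coding fit. Cdh5, the adherens junction cadherin of endothelium, was 19.9, 21.9 and 18.9 TPM in NT tumors and 17, 15.4 and 15.5 TPM in LEN tumors (log2 difference -0.32 ± 0.08, adjusted p = 0.32 over all genes and 0.12 in the protein-coding fit). Eng, a TGF-β coreceptor, was 13.8, 18.1 and 15.3 TPM without treatment and 12.9, 10.2 and 10.4 TPM with LEN (adjusted p = 0.13). Kdr, the main signaling VEGF receptor and a direct target of LEN, was 5.41, 6.75 and 4.85 TPM without treatment and 4.46, 3.68 and 4.09 TPM with LEN (adjusted p = 0.20). None of these 3 overlapped between the groups, yet the gaps were small. Pcdh12, an endothelial protocadherin, was 1.34, 1.61 and 1.2 TPM in NT tumors and 0.32, 0.42 and 0.44 TPM in LEN tumors, below the minimum of the fit over all genes. Its adjusted p was 0.054 in the protein-coding fit and 0.0084 in the fit of 72 tumors. Tek, the angiopoietin receptor, was 0.82, 1.02 and 0.64 TPM in NT tumors and 0.43, 0.39 and 0.64 TPM in LEN tumors and its groups met at 0.64 TPM (adjusted p = 0.41). Pecam1, whose product CD31 is stained to count vessels, was 13.3, 20.1 and 16.8 TPM without treatment and 10.4, 11.2 and 12 TPM with LEN (log2 difference -0.53 ± 0.15, adjusted p = 0.33 over all genes and 0.10 in the protein-coding fit).

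**Figure D2:**
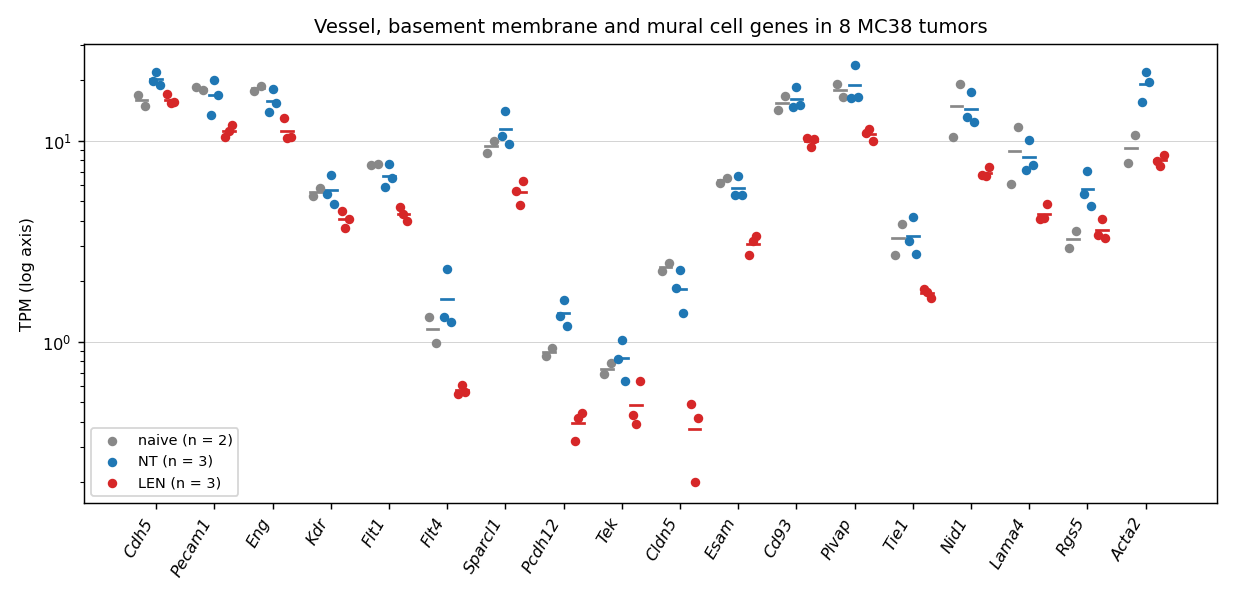
TPM on a log axis for 18 vessel, basement membrane and mural cell genes in the 8 MC38 tumors, with treatment-naive, NT and LEN tumors as separate points. LEN points lie below NT points for every gene shown but Tek, where they meet, with a small step for Cdh5 and a large one for Sparcl1, Nid1 and Acta2.

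Of the receptors that LEN inhibits, 8 of 10 could be tested, with a median log2 difference of -0.08. None passed over all genes or in the protein-coding fit (0 genes by limma, with 3 lower and 1 higher at an unadjusted p below 0.05 over all genes). Flt1, the decoy-like VEGF receptor, was 5.86, 7.64 and 6.54 TPM without treatment and 4.68, 4.29 and 3.98 TPM with LEN (adjusted p = 0.28 over all genes and 0.084 in the protein-coding fit). Flt4, the lymphatic VEGF receptor, was 1.32, 2.3 and 1.25 TPM without treatment and 0.55, 0.61 and 0.56 TPM with LEN (adjusted p = 0.35 over all genes and 0.0056 in the fit of 72 tumors, where it fell). These VEGF receptors were lower without overlap. Fgfr1, the most abundant of the targets, was 111, 109 and 98.1 TPM without treatment and 125, 149 and 119.9 TPM with LEN (adjusted p = 0.37 over all genes and 0.12 in the protein-coding fit), and Kit, the stem cell factor receptor, was 2.21, 2.6 and 1.91 TPM without treatment and 6.78, 2.7 and 2.99 TPM with LEN (adjusted p = 0.51). In both, every LEN tumor was above every NT tumor. Pdgfra, Fgfr2 and Fgfr3 overlapped between the groups, with log2 differences of 0.13, -0.26 and 0.09, and Fgfr4 and Ret were below 1 TPM on average. Among the ligands, Vegfa was 65.6, 73.5 and 72.2 TPM in NT tumors and 83.3, 111 and 83.3 TPM in LEN tumors (log2 difference 0.38 ± 0.12, adjusted p = 0.37 over all genes and 0.13 in the protein-coding fit), the highest value being LEN tumor 3.

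Cells and matrix around the vessels moved to different degrees. Of 10 vascular basement membrane genes 2 fell (background 0.369%, median log2 difference -0.19 over the 10), and 0 did without LEN tumor 2, 3 or 5 or NT tumor 3 or 4. Nid1, which links laminin to collagen IV, was 13.1, 17.5 and 12.4 TPM in NT tumors and 6.74, 6.66 and 7.38 TPM in LEN tumors (log2 difference -0.99 ± 0.12, adjusted p = 0.018). Lama4, the laminin chain of vessel basement membranes, was 7.17, 10.1 and 7.54 TPM in NT tumors and 4.05, 4.11 and 4.82 TPM in LEN tumors (log2 difference -0.85, adjusted p = 0.036). Acta2, smooth muscle actin, was 15.5, 22 and 19.6 TPM in NT tumors and 7.91, 7.47 and 8.49 TPM in LEN tumors and fell by 1.2 on the log2 scale (adjusted p = 0.015), the only 1 of 4 smooth muscle genes tested to do so. All 3 genes were lower in each LEN tumor than in any NT tumor.

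Pericyte genes did not pass (0 of 8 by limma, with 3 lower and 1 higher at an unadjusted p below 0.05 and a median log2 difference of -0.26 over all genes, and -0.49 over the 9 in the protein-coding fit). Rgs5, a pericyte regulator of G protein signaling, was 5.4, 7.06 and 4.75 TPM without treatment and 3.4, 4.05 and 3.27 TPM with LEN (adjusted p = 0.099). Pdgfrb, the receptor that recruits pericytes, was 9.3, 11.8 and 7.88 TPM without treatment and 8.81, 8.62 and 9.54 TPM with LEN and overlapped. The 4 lymphatic endothelial genes tested had a median log2 difference of -0.80, and none passed over all genes (0 genes, with 4 lower at an unadjusted p below 0.05). Lyve1, a hyaluronan receptor also carried by some macrophages, was 2.26, 1.65 and 2.13 TPM without treatment and 1.11, 0.18 and 0.72 TPM with LEN (adjusted p = 0.13).

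Red blood cell genes had the largest differences of any list, with a median log2 difference of -3.16 over the 5 that could be tested. Hbb-bs, a β-globin, was 68.7, 237 and 407 TPM in NT tumors and 38.3, 13.6 and 11.6 TPM in LEN tumors, against 31 and 39.2 TPM in the treatment-naive tumors. Hba-a1, an α-globin, was 50.2, 158 and 289 TPM in NT tumors and 24.1, 13.5 and 8.13 TPM in LEN tumors. The LEN tumors lay below the NT tumors, but the NT tumors themselves spanned a wide range, and LEN values were close to or below the treatment-naive ones. The adjusted p of Hbb-bs was 0.28 over all genes, 0.054 in the protein-coding fit and 0.0032 in the fit of 72 tumors, where 4 of 5 genes fell (background 0.225%). The summed level of the 7 genes was 221 to 1196 TPM in NT tumors and 43.3 to 124 TPM in LEN tumors, so this sum moved with the treatment, and its part in the other results was not tested.

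Of all lists, hypoxia-response genes held the most members that rose. All 25 could be tested, with a median log2 difference of 0.53 against 0.03 over all genes, 24 above 0 and 19 higher without overlap (background 11.1%). None passed over all genes by limma (0 genes, with 19 higher and 1 lower at an unadjusted p below 0.05). In the protein-coding fit 12 of 25 rose (background 0.323%), and none fell. The count was 10 without NT tumor 2, 4 without LEN tumor 2 or LEN tumor 3, and 0 without LEN tumor 5, NT tumor 3 or NT tumor 4. In the fit of 72 tumors 4 rose when the values were rescaled the same way, and 0 at TPM as deposited.

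Car9, a cell surface carbonic anhydrase that exports acid, had the largest difference. It was 24.2, 16.9 and 17.6 TPM in NT tumors and 37.7, 51.9 and 39.7 TPM in LEN tumors, with a log2 difference of 1.10 ± 0.15 (adjusted p = 0.025). Egln3, a HIF prolyl hydroxylase that HIF itself induces, was 11.1, 11.7 and 10.1 TPM in NT tumors and 16.5, 25.5 and 21.1 TPM in LEN tumors (log2 difference 0.87, adjusted p = 0.034). Bnip3, a mitophagy receptor, was 102, 88.6 and 87 TPM in NT tumors and 138, 209.6 and 157 TPM in LEN tumors (log2 difference 0.82, adjusted p = 0.034). LEN tumor 3 was the highest in each of these genes, and no LEN tumor reached down to the NT range. Ddit4, an inhibitor of mTORC signaling, was 58.5, 63.4 and 58 TPM without treatment and 88.2, 120.3 and 89 TPM with LEN (adjusted p = 0.024), and Fam162a, a mitochondrial HIF target, was 137, 119 and 112 TPM without treatment and 180.3, 195 and 180.3 TPM with LEN (adjusted p = 0.023). Ero1l, an oxidase of the endoplasmic reticulum, Slc2a1, the glucose transporter GLUT-1, Ndrg1, Kdm3a and Egln1 also rose, with log2 differences of 0.72, 0.71, 0.52, 0.55 and 0.53. So did the collagen prolyl hydroxylases P4ha1 (0.49) and P4ha2 (0.58). The exception to the direction was Lox, the collagen crosslinking oxidase, at 14.4, 21.3 and 18.5 TPM without treatment and 11.4, 10.5 and 10.9 TPM with LEN (log2 difference -0.70, adjusted p = 0.054).

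Glycolysis genes lay higher in every LEN tumor than in any NT tumor in 14 of 14 cases (background 11.1%), with a median log2 difference of 0.33. None passed over all genes by limma (0 genes, with 13 higher at an unadjusted p below 0.05), and 5 rose in the protein-coding fit (background 0.323%). That count was at most 2 when any tumor was left out, with 0 without LEN tumor 2, LEN tumor 5, NT tumor 3 or NT tumor 4, 1 without LEN tumor 3 and 2 without NT tumor 2, and it was 0 in the fit of 72 tumors. Aldoa, the glycolytic aldolase, was 693, 709 and 670.5 TPM in NT tumors and 860.0, 1054 and 859 TPM in LEN tumors (log2 difference 0.40, adjusted p = 0.036). Ldha, which turns pyruvate into lactate, was 814, 806 and 753 TPM in NT tumors and 958, 1039.8 and 921 TPM in LEN tumors (log2 difference 0.28, adjusted p = 0.043). Tpi1, Pgk1 and Pgam1, further enzymes of the pathway, rose by 0.35, 0.40 and 0.31 on the log2 scale. The differences were thus small and even. By contrast 22 oxidative phosphorylation genes had a median of 0.03, and 1 of them was higher without overlap (0 passed by limma, and 0 at an unadjusted p below 0.05).

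**Figure D3:**
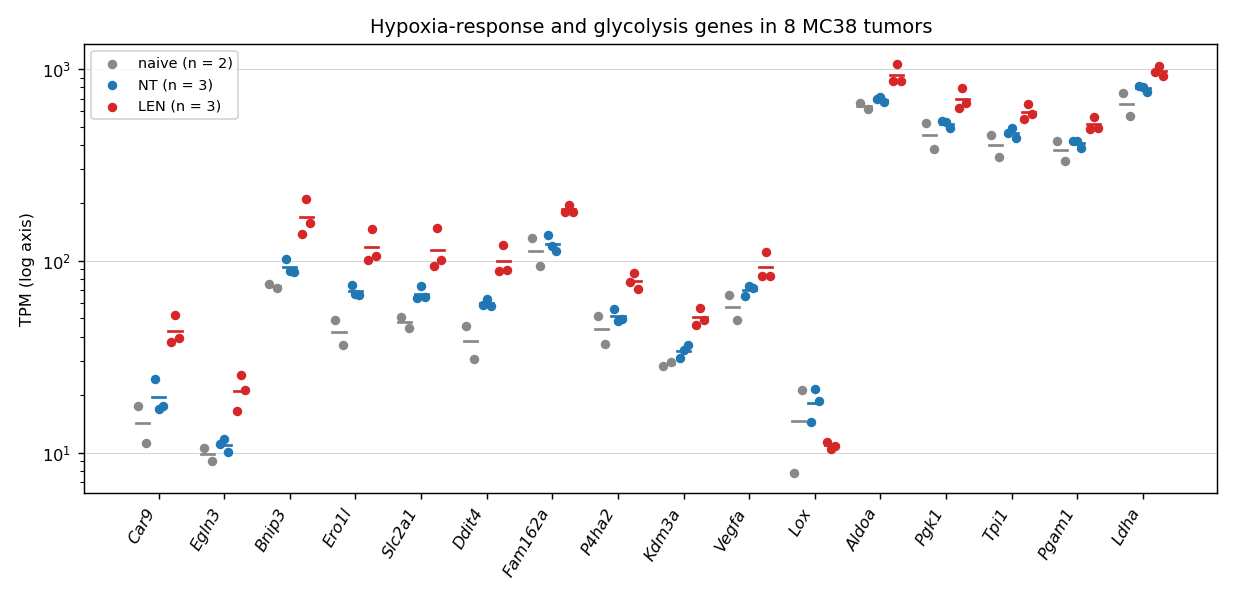
TPM on a log axis for 16 hypoxia-response and glycolysis genes in the 8 MC38 tumors, with treatment-naive, NT and LEN tumors as separate points. LEN points lie above NT points in every gene shown except Lox, where they lie below, and LEN tumor 3 is often the highest.

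HIF proteins bind a short core written ACGTG or GCGTG, and promoter windows of these genes were searched for it on both strands. RefSeq windows on GRCm38.p6 (250 bases before to 50 after each start) held the core in 43.8% of all 32851 windows. Of the 25 hypoxia-response genes, 20 had a window, and all 20 held the core in at least 1 window (83.9% of their 31 windows). Of the glycolysis genes 12 of 14 held it (76.2% of their 21 windows), and of 11 endothelial genes with a window 6 did (40% of 15 windows). A match is a description of letters and shows no binding. The non-exonic parts of 4 windows are printed, for 3 hypoxia genes that rose and for Igfbp3, which fell and also holds the core. The part printed for Car9 holds no match, and that of its window lies in the bases not printed. The sequences read 5′ to 3′ on the gene's own strand, plus for Car9 and minus for the others, at chr4:43506776-43506965 for Car9, chr12:54203875-54204124 for Egln3, chr7:138909520-138909756 for Bnip3 and chr11:7213924-7214173 for Igfbp3. Capitals mark the core or its reverse complement (CACGT or CACGC), and a palindromic CACGTG counts on both strands.
Car9: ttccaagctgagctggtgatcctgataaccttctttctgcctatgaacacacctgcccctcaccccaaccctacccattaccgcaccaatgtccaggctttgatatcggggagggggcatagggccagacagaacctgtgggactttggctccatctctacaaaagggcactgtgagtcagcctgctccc
Egln3: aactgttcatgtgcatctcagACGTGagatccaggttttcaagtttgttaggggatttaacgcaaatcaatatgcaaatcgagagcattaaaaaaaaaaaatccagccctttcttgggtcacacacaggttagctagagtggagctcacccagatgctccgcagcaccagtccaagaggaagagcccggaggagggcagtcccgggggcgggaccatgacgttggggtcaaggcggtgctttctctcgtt
Bnip3: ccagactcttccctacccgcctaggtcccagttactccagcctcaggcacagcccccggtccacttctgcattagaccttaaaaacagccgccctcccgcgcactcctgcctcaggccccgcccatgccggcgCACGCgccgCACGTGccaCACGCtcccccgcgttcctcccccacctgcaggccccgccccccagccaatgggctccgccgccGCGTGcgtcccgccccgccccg
Igfbp3: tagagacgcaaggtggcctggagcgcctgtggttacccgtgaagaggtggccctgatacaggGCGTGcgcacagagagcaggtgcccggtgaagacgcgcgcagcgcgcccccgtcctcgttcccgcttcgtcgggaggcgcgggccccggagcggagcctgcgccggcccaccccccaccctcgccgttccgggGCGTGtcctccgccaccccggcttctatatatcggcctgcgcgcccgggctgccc

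Egln3 thus carries 1 match, Bnip3 carries 5 and Igfbp3 carries 2.

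Genes of fibroblasts and interstitial matrix split. All 20 could be tested, with a median log2 difference of -0.38, 11 lower and 5 higher without overlap (background 6.41% and 11.1%). None passed over all genes by limma (0 genes, with 10 lower and 5 higher at an unadjusted p below 0.05), while 5 fell and 1 rose in the protein-coding fit (background 0.369% and 0.323%). The number that fell was 1 without LEN tumor 2, 2 without LEN tumor 3 or NT tumor 3, 0 without LEN tumor 5 or NT tumor 4, and 6 at most, without NT tumor 2. None fell in the fit of 72 tumors. Col1a1, a chain of the type I collagen of scar and stroma, was 264, 436 and 316 TPM in NT tumors and 143, 168 and 150.3 TPM in LEN tumors (log2 difference -1.12 ± 0.13, adjusted p = 0.015). Col1a2, its partner chain, was 157, 254 and 183 TPM in NT tumors and 83.5, 98.2 and 86.8 TPM in LEN tumors (log2 difference -1.13, adjusted p = 0.015). Both were lower in every LEN tumor, but the treatment-naive tumors, at 167 and 584 TPM for Col1a1, differed from each other by more TPM than the NT and LEN groups did. Col3a1, Col5a2 and Sparc, further stromal matrix genes, fell by 0.63, 0.75 and 0.47 on the log2 scale. Dcn, the proteoglycan decorin, went the other way at 70.2, 75.8 and 60.6 TPM without treatment and 94.5, 94.5 and 100.4 TPM with LEN and rose by 0.47 (adjusted p = 0.034). Col6a1, a microfibrillar collagen, was 110.3, 122 and 79.5 TPM without treatment and 158, 162 and 149 TPM with LEN (adjusted p = 0.054), and Fn1, fibronectin, was 243, 216 and 227 TPM without treatment and 276, 278 and 292 TPM with LEN (adjusted p = 0.13).

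The genes that fell most also included the following, which are outside the lists. Sfrp2, a secreted WNT modulator, was 11.2, 18.7 and 14.9 TPM in NT tumors and 2.66, 4.56 and 4.54 TPM in LEN tumors (log2 difference -1.80 ± 0.21, adjusted p = 0.015). Sfrp1, a close relative, was 6.21, 12 and 8.15 TPM without treatment and 2.07, 2.83 and 3.19 TPM with LEN (adjusted p = 0.031). Col14a1, a fibril-associated collagen, was 8.06, 11.8 and 8.64 TPM without treatment and 4.09, 3.27 and 2.62 TPM with LEN (adjusted p = 0.019). All were lower in each LEN tumor than in any NT tumor. Fmod, fibromodulin, fell by 1.30 on the log2 scale (adjusted p = 0.041). Mest, an imprinted gene of mesoderm, was 7.57, 10.2 and 5.89 TPM in NT tumors and 1.79, 2.39 and 1.27 TPM in LEN tumors (adjusted p = 0.015). Selenop, a plasma selenium carrier, was 38.1, 70.3 and 47.8 TPM without treatment and 19.7, 23.3 and 16.3 TPM with LEN (adjusted p = 0.024), and Ckb, a creatine kinase, was 10.4, 15.2 and 12.4 TPM without treatment and 3.89, 4.93 and 5.18 TPM with LEN (adjusted p = 0.015). The predicted gene Gm10800 also fell, by 1.41. Of these genes, Mest, Col14a1, Selenop, Ckb and Gm10800 were called in the fit of 72 tumors as well.

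Among matrix metalloproteinases and their inhibitors 1 of 13 rose (background 0.323%), Mmp11 (stromelysin-3), at 27.2, 24.5 and 21.5 TPM in NT tumors and 42.9, 61.1 and 46.6 TPM in LEN tumors (log2 difference 1.00 ± 0.12, adjusted p = 0.015). Among 15 coagulation and fibrinolysis genes, Serpine2, a protease inhibitor, fell by 0.99 (adjusted p = 0.036) and F10 rose (background 0.369% and 0.323%). The call of Serpine2 was lost whichever tumor was left out (adjusted p = 0.053 to 0.14), and F10 passed only in the fit without NT tumor 2. F10, coagulation factor X, also made by monocytes and macrophages, had the largest rise of the fit at 2.38, 1.56 and 1.83 TPM in NT tumors and 5.58, 5.49 and 4.85 TPM in LEN tumors (log2 difference 1.23 ± 0.17, adjusted p = 0.024). The remaining genes with the largest rises belonged to none of the gene lists. Selenbp1, a methanethiol oxidase, was 9.32, 6.91 and 6.5 TPM in NT tumors and 14.3, 22.2 and 16.3 TPM in LEN tumors (adjusted p = 0.034). Aire, known for tolerance in the thymus, was 12.7, 9.62 and 10.8 TPM in NT tumors and 18.8, 27.9 and 22.4 TPM in LEN tumors (adjusted p = 0.034). Syt13, a synaptotagmin, was 2.71, 2.65 and 2.15 TPM in NT tumors and 5.69, 6.45 and 4.74 TPM in LEN tumors (adjusted p = 0.031). LEN values exceeded NT values in every tumor for these genes. Gpr141, Phospho1, Mgarp and Sema3a rose by 0.97, 0.91, 0.82 and 0.75 on the log2 scale. The call of Gpr141 was lost whichever tumor was left out (adjusted p = 0.059 to 0.13), while Phospho1 and Mgarp passed only in the fit without NT tumor 2, and Sema3a in that fit and the one without LEN tumor 3.

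Macrophage and inflammatory monocyte genes were mixed, with more macrophage members below 0 than above. Of 17 macrophage genes 16 could be tested over all genes, with a median log2 difference of -0.50 (-0.31 over the 17 in the protein-coding fit), 12 below and 4 above 0, 7 lower and 2 higher without overlap (background 6.41% and 11.1%), and none passed by limma (0 genes, with 8 lower and 2 higher at an unadjusted p below 0.05). In the protein-coding fit 3 fell and 1 rose (background 0.369% and 0.323%). The summed level of the 17 genes overlapped between the groups, at 1848 to 2431 TPM in NT tumors and 1789 to 2159.9 TPM in LEN tumors. The number that fell was 7 without NT tumor 2 and 0 when any other tumor was left out. Adgre1, the F4/80 antigen of mature macrophages, was 17.1, 22.4 and 17.9 TPM in NT tumors and 9.36, 10.4 and 12.1 TPM in LEN tumors (log2 difference -0.83 ± 0.12, adjusted p = 0.031). Mrc1, the mannose receptor CD206, was 11.9, 16.5 and 15.3 TPM in NT tumors and 6.58, 7.94 and 7.42 TPM in LEN tumors (log2 difference -0.94, adjusted p = 0.024), and Folr2, a folate receptor of perivascular macrophages, fell by 0.79 (adjusted p = 0.038). C1qa, a complement subunit made by tissue macrophages, was 119.9, 211 and 153 TPM without treatment and 73.3, 82.3 and 108 TPM with LEN (adjusted p = 0.082). Spp1, osteopontin, which both macrophages and tumor cells can make, went up from 975, 905 and 857 to 1164, 1400.0 and 1206 TPM and rose by 0.44 (adjusted p = 0.034).

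Of 13 inflammatory monocyte genes 2 rose in the protein-coding fit, Ccr2 and F10 (background 0.323%), with a list median of 0.22 and 4 higher and 2 lower without overlap (background 11.1% and 6.41%). Their summed level overlapped between the groups, at 595 to 737 TPM in NT tumors and 599 to 745 TPM in LEN tumors (0 genes passed over all genes by limma, with 5 higher and 2 lower at an unadjusted p below 0.05). Ccr2, the chemokine receptor that brings monocytes out of the marrow, was 10.5, 10.8 and 9.8 TPM in NT tumors and 14.8, 16.4 and 16.9 TPM in LEN tumors (log2 difference 0.58 ± 0.09, adjusted p = 0.034). Chil3, a chitinase-like protein of young monocytes, was 3.41, 5.66 and 4.01 TPM without treatment and 11, 7.11 and 10.8 TPM with LEN (adjusted p = 0.068). The LEN tumors were above the NT tumors in both genes, and the treatment-naive tumors were higher still for Ccr2, at 21.3 and 22.3 TPM.

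Few lymphocyte or interferon genes passed. The 15 T cell identity genes tested had a median log2 difference of 0.00 (1 lower and 1 higher at an unadjusted p below 0.05), and Cd8a, the coreceptor of cytotoxic T cells, was 2.31, 5.24 and 3.19 TPM without treatment and 2.7, 2.52 and 3.52 TPM with LEN and overlapped. The 10 checkpoint and costimulation genes had a median of -0.02 (1 higher at an unadjusted p below 0.05), with Pdcd1, which encodes PD-1, at 1.75, 2.21 and 1.94 TPM without treatment and 1.58, 1.49 and 2.62 TPM with LEN. The 18 cytotoxic and NK cell genes had a median of 0.16, 6 higher and 1 lower without overlap (background 11.1% and 6.41%), and none passed (0 genes by limma in both fits, with 5 higher and 1 lower at an unadjusted p below 0.05 over all genes). Gzmb, granzyme B, was 39.9, 35.6 and 39.4 TPM in NT tumors and 48.9, 45.9 and 46.2 TPM in LEN tumors (log2 difference 0.29 ± 0.07, adjusted p = 0.29). Its values were separate between the groups, while those of Cd8a were not. In none of these 3 lists did a gene pass in either fit.

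The interferon gamma genes had a median of -0.11, and 1 of 18 fell in the protein-coding fit (background 0.369%). This was Cxcl10, a chemokine for activated T cells, at 779, 870.5 and 717 TPM in NT tumors and 650.1, 627 and 574 TPM in LEN tumors (log2 difference -0.37 ± 0.06, adjusted p = 0.038). Its adjusted p was 0.29 over all genes and 0.90 in the fit of 72 tumors rescaled the same way, and in the protein-coding fit it was 0.052 to 0.15 when any tumor was left out, so that the call was lost without each of the 6. Cxcl9, a related chemokine, was 35.3, 46.3 and 32.9 TPM without treatment and 24.7, 29.6 and 21.1 TPM with LEN (adjusted p = 0.066). Both chemokines were lower in every LEN tumor, but Cd274, the gene of PD-L1 and an interferon gamma target too, was 20.9, 30.5 and 23.8 TPM without treatment and 23.7, 28.9 and 23.5 TPM with LEN. The interferon-stimulated genes (22), MHC class I genes (13) and MHC class II genes (8) had medians of -0.02, 0.07 and -0.18 with no call in either fit (1 interferon-stimulated gene lower at an unadjusted p below 0.05, and 0 of the MHC genes).

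Cell cycle genes were slightly lower. All 26 could be tested, with a median of -0.17, 24 below 0 and 14 lower without overlap (background 6.41%), and none passed in either fit (0 genes by limma, with 11 lower at an unadjusted p below 0.05 over all genes). Mki67, the proliferation antigen Ki-67, was 77.3, 79.6 and 72.3 TPM in NT tumors and 62.9, 64.4 and 64.5 TPM in LEN tumors (log2 difference -0.25 ± 0.06, adjusted p = 0.28 over all genes and 0.072 in the protein-coding fit). The 21 integrated stress response genes tested had a median of 0.09, with 8 higher without overlap (background 11.1%) and 0 called (7 higher at an unadjusted p below 0.05). Trib3, a pseudokinase of that response, was 73.1, 62.2 and 73.3 TPM without treatment and 95, 114 and 93 TPM with LEN (adjusted p = 0.067). The 14 p53 pathway genes had a median of 0.09 and no call (1 lower and 2 higher at an unadjusted p below 0.05).

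**Figure D4:**
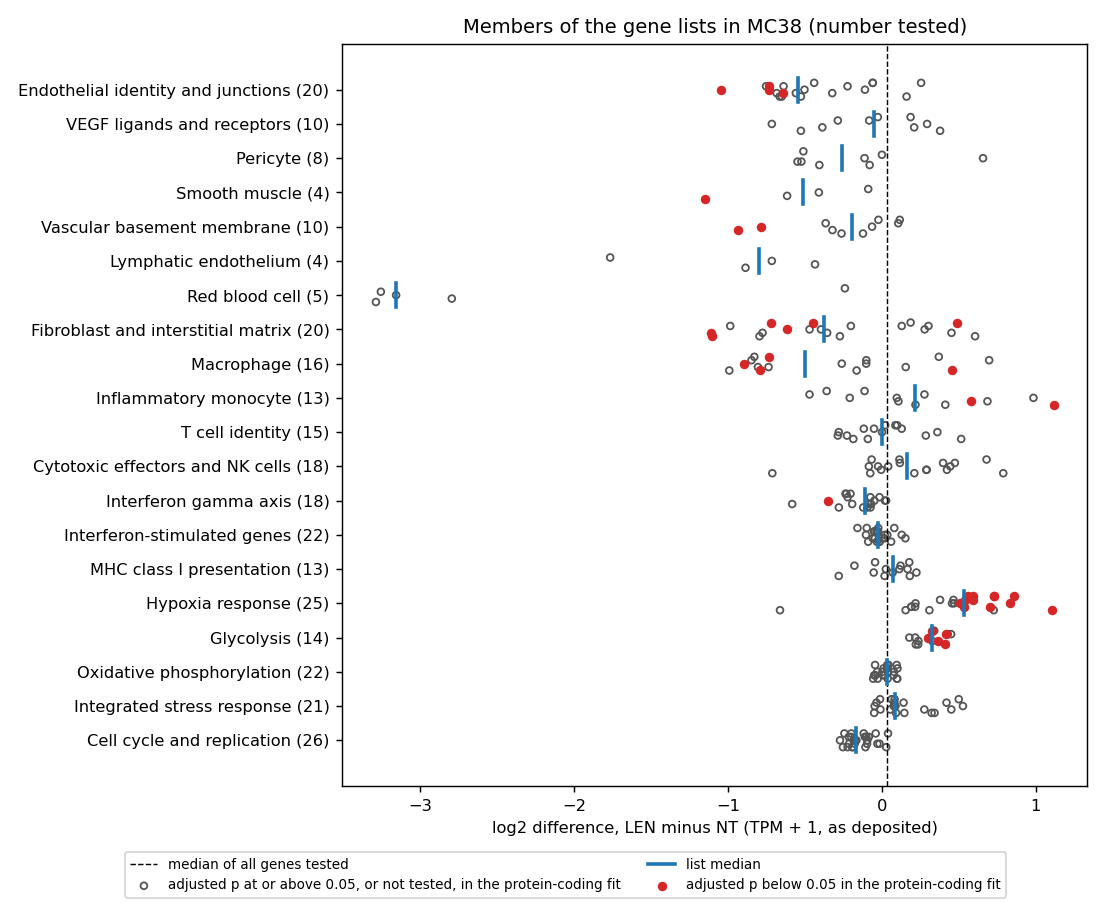
Log2 difference of LEN minus NT (TPM + 1, as deposited) for each tested member of 20 gene lists, with blue bars at the list medians, red points for an adjusted p below 0.05 in the protein-coding fit and a dashed line at the median of all genes, 0.03. Red points lie left of the line for endothelial, basement membrane, most matrix and most macrophage members, and right of it for hypoxia-response and glycolysis members.

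The effect of LEN in MC38 was then set against its mean effect in the other 11 models, as a contrast within the fit of 72 tumors over 17351 genes. The p-values of this contrast measure the spread between tumors within groups, and not the spread of the effect between models. MC38 was lower for 26 genes (0.15%) and higher for 23 (0.133%), against 711 and 825 at an unadjusted p below 0.05. Some of these calls rest largely on 1 other model. Tff3, Tm4sf4 and Ezr, called lower, had log2 differences of 0, -0.06 and -0.14 in MC38 and 5.77, 5.17 and 3.54 in BNL. Cdh5 was the 1 gene of the MVD score among the called genes. Its log2 difference was -0.32 in MC38 and averaged -1.25 in the other models, where it ranged from -1.98 to -0.50 and was below 0 in 11 of 11. The difference of 0.93 ± 0.22 (SE) had an adjusted p of 0.041. Its size kept to between 0.88 and 0.99 when any MC38 tumor was left out, but the adjusted p was then 0.088 to 0.19 and so no longer passed, without any one of the 6. It was also 0.052 with a pseudocount of 0.1, and from 0.011 to 0.039 under the other settings without a block. With LEN, the ratio of mean Cdh5 to mean Pecam1 was 1.43 in MC38 and 0.386 to 0.800 in the others, and without treatment 1.21 and 0.594 to 1.13. MC38 thus lay outside the range of the other models on both sides of the comparison. The other MVD score genes were not called in this contrast. Kdr had a log2 difference of -0.39 in MC38 and -1.22 to -0.18 elsewhere, and Pecam1 had -0.53 and -1.27 to -0.16.

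Among the protein-coding genes most strongly lower in MC38 than elsewhere were Igf1 (-1.46), Ch25h (-1.32), Ckb (-1.05), Angptl4 (-1.01) and Dusp5 (-0.98). All 5 were lost without LEN tumor 3, NT tumor 3 or NT tumor 4 (adjusted p up to 0.25), and Igf1, Ch25h and Ckb were lost without LEN tumor 2 as well, Igf1 and Angptl4 without LEN tumor 5. Ch25h, which makes an inflammatory oxysterol, was 7.6, 10.5 and 7.78 TPM in NT tumors and 2.4, 3.87 and 4.21 TPM in LEN tumors, and fell within MC38 too (adjusted p = 0.034 in the protein-coding fit). Angptl4, a lipase inhibitor and a target of both HIF and PPAR factors, was 19.3, 27.6 and 20.9 TPM in NT tumors and 16, 9.51 and 12.1 TPM in LEN tumors. Dusp5, an ERK phosphatase that ERK induces, was 13.1, 21.6 and 18.7 TPM in NT tumors and 13.2, 8.85 and 10.7 TPM in LEN tumors. Ch25h and Angptl4 did not overlap between NT and LEN in MC38, and Dusp5 did. The log2 difference of Dusp5 was above 0 in 10 of the 11 other models, that of Ch25h in 8 and that of Angptl4 in 6. A further 8 of the 26 lower genes are given here, picked out after their values were seen and from no fixed list. Errfi1, a feedback inhibitor of EGFR, was 24.2, 29.5 and 27.2 TPM without treatment and 21.1, 14.8 and 18.5 TPM with LEN, and its difference from the other models was -0.94 (adjusted p = 0.00031), where it was above 0 in 11 of 11. It passed whichever MC38 tumor was left out (adjusted p up to 0.025). Within MC38 Errfi1 passed only in the fit of 72 tumors (adjusted p = 0.049). Hbegf and Lif, both ligands, differed by -0.87 and -0.91, and Phlda1, Junb, Klf5, Nfkbiz and Ier5 by -0.83, -0.80, -0.76, -0.66 and -0.60. Each of these 7 was above 0 in 9 or 10 of the other models, and each was lost without LEN tumor 3, NT tumor 3 or NT tumor 4 (adjusted p up to 0.25), while within MC38 none had an adjusted p below 0.05 in any of the 3 fits. Klf5 and Nfkbiz were also lost without LEN tumor 2, and Lif and Phlda1 without LEN tumor 5.

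The protein-coding genes most strongly higher in MC38 than elsewhere, beside Cdh5, were Hebp1 (1.05), Mmp11 (0.98), Brinp3 (0.96), Tenm4 (0.93) and Trp53i11 (0.93). Each was lost without LEN tumor 3 or NT tumor 4, and all but Trp53i11 without NT tumor 3 (adjusted p up to 0.39). Brinp3 and Tenm4 were also lost without LEN tumor 2, Brinp3 without NT tumor 2 and Hebp1 without LEN tumor 5. Mmp11 and Brinp3 exceeded each of the 11 other models. Tenm4, a teneurin adhesion protein, was 11.2, 6.99 and 10.3 TPM in NT tumors and 17.6, 21.6 and 16.8 TPM in LEN tumors and rose in the fit of 72 tumors (adjusted p = 0.013). Trp53i11, a p53-induced gene, had a log2 difference of -0.12 in MC38 and -1.05 on average elsewhere, where it ranged up to -0.09 in EMT6. Hebp1, a heme-binding protein, was 5.09, 3.56 and 3.87 TPM in NT tumors and 4.2, 11.8 and 8.65 TPM in LEN tumors, with LEN tumor 2 within the NT range.

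**Figure D5:**
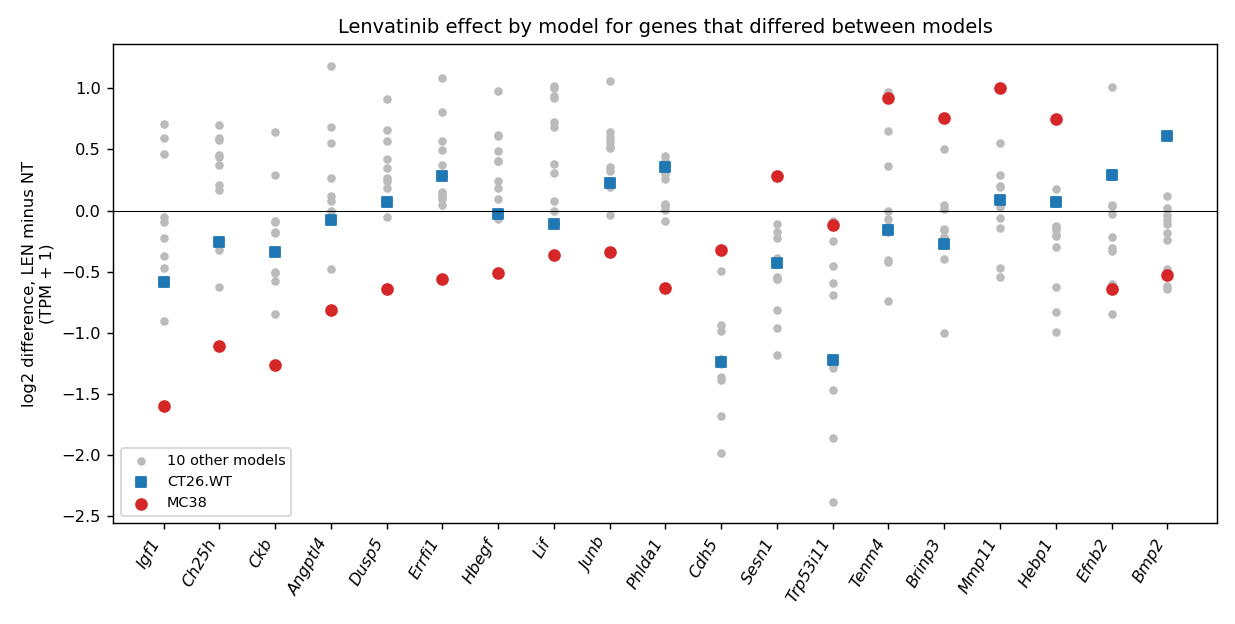
Log2 difference of LEN minus NT (TPM + 1) for 19 genes in the 12 models, with red points for MC38 and separate marks for CT26.WT and the other models. MC38 lies at or near the bottom of the spread for Igf1, Ch25h, Dusp5 and Errfi1 and at the top for Cdh5, Mmp11 and Hebp1.

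CT26.WT is the other colon carcinoma line of the series, grown in a different mouse strain. The difference between the effects in MC38 and CT26.WT was called for 7 lower genes (0.0403%) and 2 higher genes (0.0115%), against 298 and 584 at an unadjusted p below 0.05. The lower genes included Bmp2 (-1.13), a bone morphogenetic protein, Apoa1 (-1.04), Dmp1 (-0.94), Efnb2 (-0.93), a ligand of arterial endothelium, Sox2 (-0.75) and Dkk2 (-0.72). The higher genes included Prelid2 (1.24). Dmp1 and Sox2 differed mainly through CT26.WT, with log2 differences of 0 and -0.13 in MC38 against 0.94 and 0.62 in CT26.WT. Bmp2, Apoa1 and Dkk2 had log2 differences of -0.53, -0.30 and -0.19 in MC38 and 0.61, 0.74 and 0.53 in CT26.WT. Those of Efnb2 were -0.64 and 0.29, and those of Prelid2 were 0.59 and -0.65. Efnb2 was lost without NT tumor 3 alone (adjusted p = 0.079), and Bmp2 without LEN tumor 3 or NT tumor 3 (up to 0.20). Apoa1, Dmp1 and Prelid2 were lost without LEN tumor 2, LEN tumor 3 or NT tumor 4, the last 2 also without NT tumor 3 (up to 0.19). Efnb2 was 2.56, 3.65 and 2.02 TPM in NT tumors and 1.31, 1.29 and 1.51 TPM in LEN tumors in MC38, lower without overlap, and Prelid2 was 15.7, 14.3 and 15.3 TPM in NT tumors and 22.3, 25.8 and 21.8 TPM in LEN tumors, higher without overlap. No hypoxia-response, glycolysis or macrophage gene of the lists was called in the contrast with the other 11 models, and that does not show that these groups responded alike.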

How the data were processed

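RNA was measured in whole subcutaneous tumors. Per the labels and the study's methods, the authors depleted ribosomal RNA, sequenced on NovaSeq and NextSeq instruments, trimmed with Trimmomatic 0.36, mapped to the mouse genome (Ensembl release 88, GRCm38) using STAR 2.5.2b, with RSEM 1.2.31 for quantification. They deposited TPM, which keeps no depth, for 107 tumors in 1 table. Ribosomal and other non-coding RNA left in a library lowers the TPM of all its other genes, hence the fit rescaled over protein-coding genes.

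Groups came from the labels. Values were log2(TPM + 1). Genes with a mean of at least 1 TPM were fitted with limma 3.58.1 in R 4.3.3 (moderated variances that follow the mean level) on the 6 tumors, and contrasts between models on all 72 day 8 tumors as 24 groups. P-values were two-sided and adjusted by Benjamini-Hochberg, threshold 0.05. The scripts were tested on simulated data. Gene types and positions came from GENCODE M21, promoters from RefSeq, near copies from blastn 2.17.0, and tables and plots from Python 3.11.15, pandas 2.3.3 and matplotlib 3.10.9.

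The tumors, gene lists and tests were chosen with earlier results of these data known. Named genes are the MVD score genes, Pecam1, the LEN targets, the called genes, up to 4 members of each list by p, and, from each fit or contrast, the called protein-coding genes with the largest differences (up to 12 each way for LEN against NT, without overlap between the groups, and 6 for a contrast). The protein-coding fit was planned as an alternative, and its use for naming genes was added after the data were seen. Genes outside this rule (the other called members of the lists, and Cd34, Vegfa, Cd8a, Pdcd1, Cd274, Col6a1, Fn1, C1qa, Chil3, Lox, Pdgfrb, Dkk2, Epcam, Cdx2, Errfi1, Hbegf, Lif, Phlda1, Junb, Klf5, Nfkbiz and Ier5) were chosen after their values were seen. The alternatives were another minimum TPM (none or 5), a pseudocount of 0.1, upper-quartile scaling, no such trend, a replicate block and leaving out each tumor. Some genes covered by the rule are not reported here.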

Additional observations from a re-analysis of the deposited data

Results flagged for a closer look

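The effect of LEN differed between MC38 and other models by a test of the difference itself (limma contrasts in the fit of 72 tumors, adjusted p below 0.05) for the genes below, taken from the 6 largest called differences each way among protein-coding genes. The p-values measure the spread between tumors within groups, and not the spread of the effect between models. Every gene below except Sox2 was lost in at least 1 fit that left out 1 MC38 tumor, and Cdh5 in all 6. Against the mean of the other 11 models, the log2 effect in MC38 was lower by -1.46 for Igf1, -1.32 for Ch25h, -1.05 for Ckb, -1.01 for Angptl4 and -0.98 for Dusp5. It was higher by 0.93 for Cdh5, 0.93 for Trp53i11, 0.93 for Tenm4, 0.96 for Brinp3, 0.98 for Mmp11 and 1.05 for Hebp1. Against CT26.WT, it was lower by -1.13 for Bmp2, -1.04 for Apoa1, -0.94 for Dmp1, -0.93 for Efnb2 and -0.75 for Sox2, and higher by 1.24 for Prelid2. The effect within MC38 was 0 for Dmp1, -0.13 for Sox2 and -0.64 for Efnb2. The Dmp1 difference was thus the effect in CT26.WT alone (0.94).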

How the results depend on the processing

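Counts of called genes depended on the setting, and the causes were not tested beyond what each setting changes. For LEN against NT in MC38 (4 lower, 1 higher), the fit of 72 tumors gave 39 and 26, protein-coding scaling 48 and 42, protein-coding genes alone without rescaling (added after seeing the data) 20 and 16, no variance trend 2 and 0, no minimum TPM 3 and 0, and the replicate block 0 and 0 (514 and 498 at an unadjusted p below 0.05). Upper-quartile scaling gave 4 and 1, but 1158 lower and 764 higher at an unadjusted p below 0.05, against 677 and 1081 at TPM as deposited. Leaving out 1 tumor gave 2 to 12 lower and 0 to 8 higher. In the protein-coding fit (48 and 42), the fit of 72 tumors gave 81 and 63, no trend 5 and 0, the block 9 and 1, and leaving out 1 tumor 2 to 90 and 0 to 42. Against the other 11 models (26 and 23), a minimum of 5 TPM gave 25 and 13, no minimum 147 and 226, protein-coding scaling 73 and 73, a pseudocount of 0.1 21 and 11, upper-quartile scaling 69 and 48, the block 1 and 3, and leaving out 1 MC38 tumor 3 to 46 and 2 to 24. Against CT26.WT (7 and 2), these gave 3 and 2, 51 and 118, 11 and 45, 2 and 4, 17 and 8, 1 and 1, and 2 to 9 and 1 to 5. The deviations of same-numbered NT and LEN tumors from their group means had correlations of 0.01 and -0.04. So few tumors cannot settle whether they were paired, and the labels do not say. The block left 1 residual degree of freedom. Among genes named by the rule but not called, the direction reversed for Krt8 (-0.20 with a pseudocount of 0.1, -0.30 with the block), Fgfr3 (-0.12 with the block) and Krt14 (-0.030 with the block). Leaving out 1 tumor turned the sign within these ranges, Krt8 from -0.021 to 0.41, Fgfr3 from -0.13 to 0.27, Pdgfra from -0.012 to 0.22, Adipoq from -0.33 to 0.00334 and Pax5 from -0.10 to 0.00304. Depth is unknown, and with 3 tumors per group small differences cannot be told from the spread.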
